A study of Mus musculus with 24 samples.

Results

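The genes described here are the Wnt family of secreted ligands, the Frizzled (Fzd) family of their cell-surface receptors and 2 families of secreted antagonists, the secreted frizzled-related proteins (Sfrp) and the Dickkopf proteins (Dkk). They were taken by symbol, as every gene of the count files whose name starts with Wnt, Fzd, Sfrp or Dkk and a number. This gave 38 of 24346 features: 19 Wnt genes, 11 Fzd genes, 4 Sfrp genes and 4 Dkk genes. The 11 Fzd genes include Fzd10os, a non-coding transcript that is no receptor and starts 418 bases from Fzd10 on the opposite strand. Frzb, an antagonist of the same kind as Sfrp2, is not matched by such a name and was counted with the other antagonists.

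Wnt ligands bind Frizzled receptors together with the co-receptors Lrp5 and Lrp6, which lets beta-catenin build up and act with TCF and LEF factors on target genes. Sfrp proteins bind Wnt ligands outside the cell, while Dkk1 binds the co-receptors. In fat cell precursors, Wnt10b is known for holding back adipogenesis, and Wnt5a is known mainly for signals that do not pass through beta-catenin.

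The data come from 3T3-L1 cells, a mouse preadipocyte line that becomes fat-laden after hormonal induction. RNA-seq covered 12 libraries in 4 groups of 3 biological replicates. Control cells and cells of the genotype LSD1 overexpression were each taken at confluence, before induction (day 0), and 7 days after induction with insulin, dexamethasone, rosiglitazone and isobutylmethylxanthine. LSD1 (gene Kdm1a) is a demethylase of histone H3, and its binding was mapped by chromatin immunoprecipitation (ChIP-seq) in the same 4 conditions, with 1 peak list each. 2 further lists gave Nrf1, a transcription factor, at day 0 and day 7. How the LSD1 gene was delivered, and whether the overexpressing line is 1 clone, is not given in the sources used here, and all cells were of passage 13 to 18. The day 7 lists and libraries of both genotypes share the induction mixture, which includes the Pparg agonist rosiglitazone.

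Kdm1a had 79.0, 86.3 and 84.1 CPM (counts scaled to a common depth, as edgeR computes them) in control at day 0 and 89.4, 104 and 99.0 CPM in the labelled libraries at day 0, a difference that did not pass the edgeR test (log2 fold change 0.23, SE 0.096, adjusted p = 0.0969). At day 7 it was lower under the LSD1 label, at 54.3 to 55.4 CPM against 66.1 to 74.5 CPM (-0.34, SE 0.097, adjusted p = 0.00751 by edgeR). The deposited counts thus do not show more Kdm1a transcript at day 7, and the groups are called "labelled" below, with every direction drawn between labels. Pparg, the main transcription factor of fat cells, was 127 to 139 CPM in control and 337 to 350 CPM in the labelled libraries at day 7. The summed level of 8 preadipocyte and fibroblast markers was 25600 to 27700 CPM in control at day 0 and 6570 to 6790 CPM at day 7. Under the label it went from 11800 to 16500 CPM at day 0 to 385 to 436 CPM at day 7, with none of the 8 at 0. The summed level of 7 adipocyte markers rose from 25.8 to 46.3 CPM to 5970 to 7840 CPM in control, and from 22.3 to 34.6 CPM to 23000 to 27300 CPM in the labelled libraries, with Lep at 0 in all groups but control at day 7. How far the changes below follow from this shift of the whole culture was not tested, and in such bulk RNA fewer cells of a type and less RNA per cell cannot be told apart.

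1 library stood apart: replicate 1 of the labelled libraries at day 0. Its log2 levels correlated with those of the other replicates at r = 0.958 and 0.961 over all genes tested, against 0.996 between those replicates and at least 0.992 within the other groups. In the comparisons that use its group, leaving it out ended none of the calls of the 15 genes tested below. There it added 1 to the label difference at day 0 (Dkk3) and 1 to the interaction (Fzd7). The control libraries share the estimate of the spread with it, and without it 8 rather than 7 genes were lower in control at day 7 than at day 0. The values of the calls that were kept moved by less than 1.5 times on the log2 scale, except for the day 0 differences of Fzd2 and Sfrp2. Values without it are given beside Dkk3, Fzd7, Fzd2, Sfrp2 and some others.

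15 of the 38 genes had enough counts to be tested: Wnt2b, Wnt4, Wnt5a, Wnt6, Wnt9a, Wnt10b, Fzd1, Fzd2, Fzd3, Fzd4, Fzd5, Fzd7, Fzd8, Sfrp2 and Dkk3. 23 were below the filter on low counts, which asks for a minimum level, not any count, in at least as many libraries as 1 group holds. Of these, Dkk1, Fzd10os, Wnt2 and Wnt8a had 0 counts in all 12 libraries. The other 19 had 2 to 58 counts in total over the 12 libraries, with Fzd9 (58 counts), Sfrp4 (39), Wnt5b (30), Wnt11 (26), Sfrp5 (24) and Wnt7a (20) the highest. These 23 were left out of the reported test. With no filter on low counts, 4 of them passed in at least 1 comparison: Sfrp4, Sfrp5, Wnt7a and Wnt16. With DESeq2 Sfrp4 and Sfrp5 passed, and Fzd9 was lower under the label at day 7 when replicate 1 of the labelled day 0 group or replicate 3 of the labelled day 7 group was left out (adjusted p = 0.0325 in both fits, by edgeR). Sfrp4 had 20 counts in control at day 0 and 0 in the labelled libraries at day 7, Sfrp5 had 17 of its 24 counts in control at day 7, and Wnt7a had 18 of its 20 counts in the labelled libraries at day 0. Wnt16 (13 counts), Wnt7b (8), Wnt10a (6), Sfrp1 and Wnt8b (5 each), Dkk2, Dkk4 and Fzd6 (4 each), and Fzd10, Wnt1, Wnt3, Wnt3a and Wnt9b (2 each) had few counts.

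After induction the tested genes fell more often than they rose. In control cells 7 of the 15 were lower at day 7 than at day 0 and 0 were higher, where 24.6% of all 13356 genes tested were lower and 23.7% higher (edgeR, adjusted p under 0.05). At an unadjusted p under 0.05 the same comparison also had 0 higher, and DESeq2 called 0 of the 15 higher. The 1 gene of the families that DESeq2 called higher there was Sfrp5, which is not among the 15 (0 counts at day 0 and 17 at day 7, adjusted p = 0.0197). Under the label 9 were lower and 2 higher at day 7, against 37.2% and 32.6% of all genes. The median log2 fold change of the 15 was -0.57 in control and -0.44 in the labelled libraries, against -0.0062 and -0.067 over all genes tested. Between labels, 8 were lower and 1 higher at day 0 (13.0% and 12.8% of all genes), and 8 were lower and 2 higher at day 7 (33.4% and 30.2%). The 8 at day 0 became 6 when any 1 control library of either day, or labelled day 7 replicate 1, was left out. All 12 libraries share the estimate of the spread. Without the library that stood apart, 8 of 16 were lower and 0 higher with induction in control, against 32.1% and 31.0% of all genes. Between labels at day 0, 8 were then lower and 2 higher, where the shares of all genes were 26.0% and 22.6%. The medians were -0.47 at day 0 and -0.81 at day 7, against 0.0044 and -0.052 over all genes. These comparisons share their groups with each other, so their counts are not independent. The interaction, which tests whether the day 7 to day 0 difference differs between the labels, passed for 11 of the 15, 5 higher and 6 lower under the label (23.9% and 28.1% of all genes). Wnt6 and Wnt10b passed the filter only through the labelled day 0 group, where they are highest. Both are among the 9 that fell under the label and the 6 lower in the interaction. Wnt6 is also the 1 gene higher under the label at day 0.

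**Figure D1:**
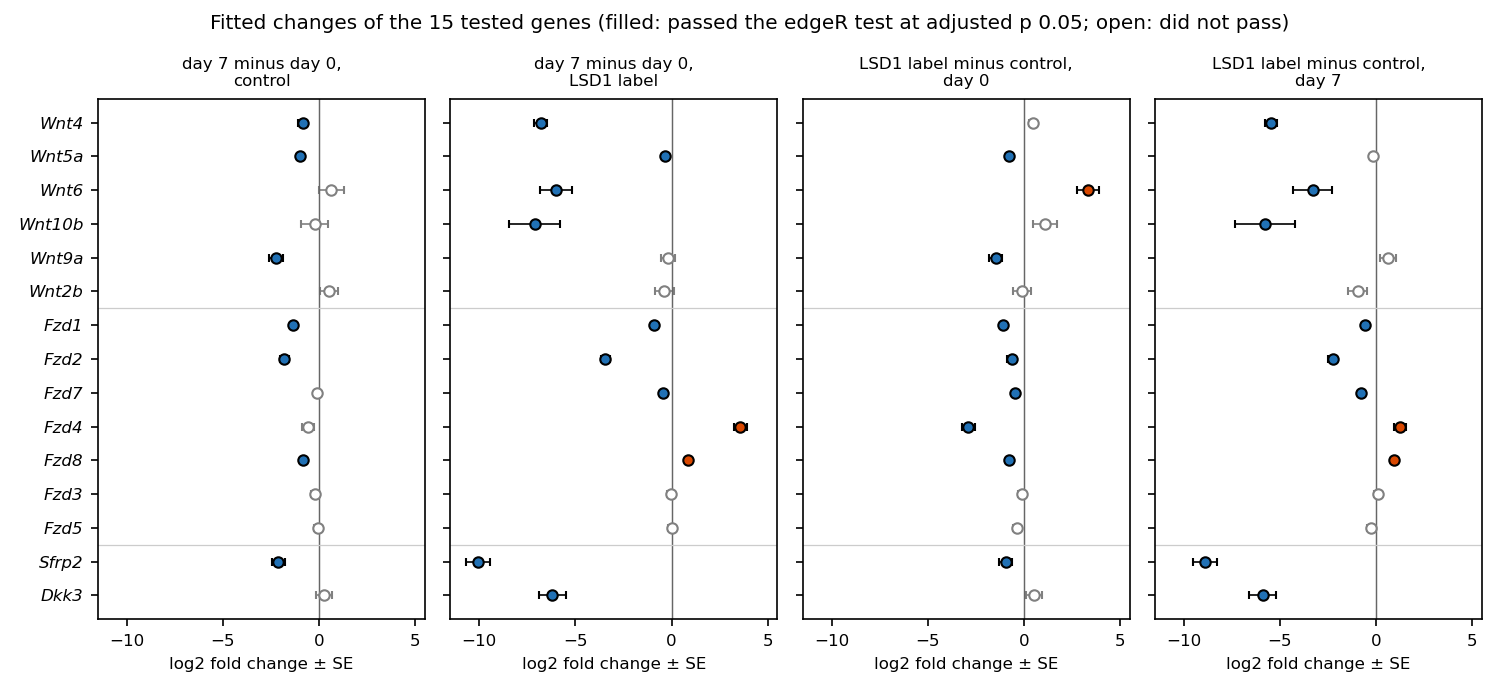
Fitted log2 fold changes of the 15 tested genes (rows) in 4 comparisons (panels), with SE as whiskers; filled points passed the edgeR test and open points did not. From day 0 to day 7 of the labelled libraries Sfrp2, Wnt10b, Wnt4, Dkk3 and Wnt6 lie farthest to the left, where the fitted value of Wnt10b is against a group with 0 counts, while Fzd4 and Fzd8 lie above 0.

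Among the ligands, Wnt4 and Wnt5a made up most of the transcript, and they parted in the labelled libraries at day 7. Wnt4, a ligand known from kidney and gonad development, had 25.4, 29.3 and 27.3 CPM in control at day 0 and 16.2, 14.2 and 14.5 CPM at day 7. Labelled libraries had 53.8, 32.4 and 27.8 CPM at day 0 and 0.221, 0.465 and 0.311 CPM at day 7. The day 7 labelled libraries lie below all the others, with 19 counts in the 3 libraries together. The fall was 0.87 on the log2 scale in control (-0.87, SE 0.21, adjusted p = 0.00501) and far larger in the labelled libraries (-6.81, SE 0.32, adjusted p = 1.19e-09), and the difference between these falls also passed (-5.94, SE 0.39, adjusted p = 1.57e-07, all by edgeR). At day 0 the labels did not differ past the test (0.47, SE 0.21, adjusted p = 0.119 by edgeR), and without the library that stood apart that value was 0.14. Without replicate 3 of the labelled group it passed (0.66, adjusted p = 0.041). At day 7 Wnt4 was lower in the labelled libraries (-5.46, SE 0.32, adjusted p = 2.16e-08 by edgeR).

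Wnt5a had the highest level of the ligands in the labelled libraries at day 7. It had 41.7, 44.7 and 45.3 CPM in control at day 0, 21.7, 21.5 and 22.6 CPM in control at day 7, 22.1, 28.2 and 25.5 CPM in the labelled libraries at day 0 and 18.7, 22.5 and 18.2 CPM at day 7. Control at day 0 is the high group, and the other 3 groups lie close together. Wnt5a fell with induction in control (-1.003, SE 0.12, adjusted p = 2.96e-05 by edgeR) and was lower under the label at day 0 (-0.79, SE 0.12, adjusted p = 0.000561). In the labelled libraries its groups at day 0 and day 7 overlapped (-0.36, SE 0.12, adjusted p = 0.0212 by edgeR). That call was lost without replicate 2 of the day 0 group (-0.27, adjusted p = 0.0949), without its replicate 3 and without replicate 1 or 3 of the day 7 group. At day 7 the labels did not differ beyond the test (-0.15, SE 0.12, adjusted p = 0.319).

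Per kilobase of exon, the scale on which genes can be set against each other, the level of Wnt4 was 7.15 ± 0.513 and that of Wnt5a 6.98 ± 0.302 CPM per kb in control at day 0 (SD, n = 3), and their libraries overlapped. In control at day 7 the levels were 3.91 ± 0.278 and 3.48 ± 0.0928, without overlap. In the labelled libraries Wnt4 led at day 0 with 9.94 ± 3.63 against 4.02 ± 0.485, and at day 7 Wnt5a led with 3.15 ± 0.373, followed by Wnt9a (0.197 ± 0.0231), Wnt2b (0.148 ± 0.0231) and Wnt4 (0.0868 ± 0.0323). Wnt9a and Wnt2b overlapped there, and Wnt4 lay below both. Wnt5a thus took 85.2% ± 1.72 of the summed ligand level in that group. In the labelled libraries at day 0 it took 25.9% ± 7.38, with 17.4% in the library that stood apart. Its share was 45.5% ± 0.199 in control at day 0 and 41.9% ± 1.96 in control at day 7. The sum itself was 15.3 ± 0.729 CPM per kb in control at day 0, 8.33 ± 0.437 in control at day 7, 16.2 ± 3.59 in the labelled libraries at day 0 and 3.69 ± 0.372 at day 7.

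Of the less abundant ligands, Wnt6 and Wnt10b, both counted among those that restrain fat cell formation, fell in the labelled libraries to 2 and 0 counts. Both passed the filter on low counts only through the labelled libraries at day 0, the group where they are highest. Their differences against that group are thus not independent of the filter. Wnt6 was also higher under the label at day 0, where the difference for Wnt10b did not pass (1.10, SE 0.61, adjusted p = 0.218 by edgeR). Wnt6 had 3, 3 and 13 counts in control at day 0, 7, 6 and 14 in control at day 7, 90, 60 and 54 in the labelled libraries at day 0 and 0, 2 and 0 at day 7. The labelled libraries at day 0 lie above all others, and replicate 1, the library that stood apart, is the highest. Wnt6 was higher under the label at day 0 (3.34, SE 0.59, adjusted p = 0.0014 by edgeR), and without that library the value was 3.00 (adjusted p = 9.9e-05). From day 0 to day 7 of the labelled libraries Wnt6 fell 72.6-fold per scaled depth, from 204 to 2 counts, with an exact 95% counting interval of 19.9 to 604. Against control at day 7, which had 27 counts, it was 11.3-fold lower (2.83 to 97.8), and both comparisons passed the edgeR test (adjusted p = 2.65e-05 and 0.0117). Both counts at day 7 are in replicate 2. Without it the group has 0 counts, and the fitted values, which then depend on the prior count, were -8.94 for the change with induction and -6.25 for the label difference. With each library left out in turn, these values ranged up to -5.47 and -2.77, and both calls were kept.

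Wnt10b had 14, 4 and 8 counts in control at day 0, 6, 1 and 13 in control at day 7, 19, 20 and 20 in the labelled libraries at day 0 and 0 in each labelled library at day 7. Against a floor of 3 counts, taken over the group of 3 libraries, it was at least 14.0-fold lower than in the labelled libraries at day 0 and at least 5.56-fold lower than in control at day 7 (adjusted p = 0.000637 and 0.00764 by edgeR). In control the change with induction did not pass (-0.24, SE 0.69, adjusted p = 0.8). Wnt6 and Wnt10b each stand beside another member on their chromosome, Wnt10a 6699 bases and Wnt1 11706 bases away, and these neighbours had 6 and 2 counts in all.

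Wnt9a went another way. It had 63, 44 and 48 counts in control at day 0 and between 6 and 25 counts in every other library, so control at day 0 stands alone. It fell with induction in control (-2.25, SE 0.36, adjusted p = 0.000262 by edgeR) and was lower under the label at day 0 (-1.45, SE 0.34, adjusted p = 0.0073), while in the labelled libraries the change with induction did not pass (-0.19, SE 0.37, adjusted p = 0.656). Wnt2b had 9 to 34 counts a library and passed in none of the 5 comparisons, with adjusted p from 0.104 to 0.923 by edgeR. Its change with induction in control passed without replicate 3 of control at day 0 (1.30, adjusted p = 0.0359), as did the interaction (-1.68, adjusted p = 0.0356).

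**Figure D2:**
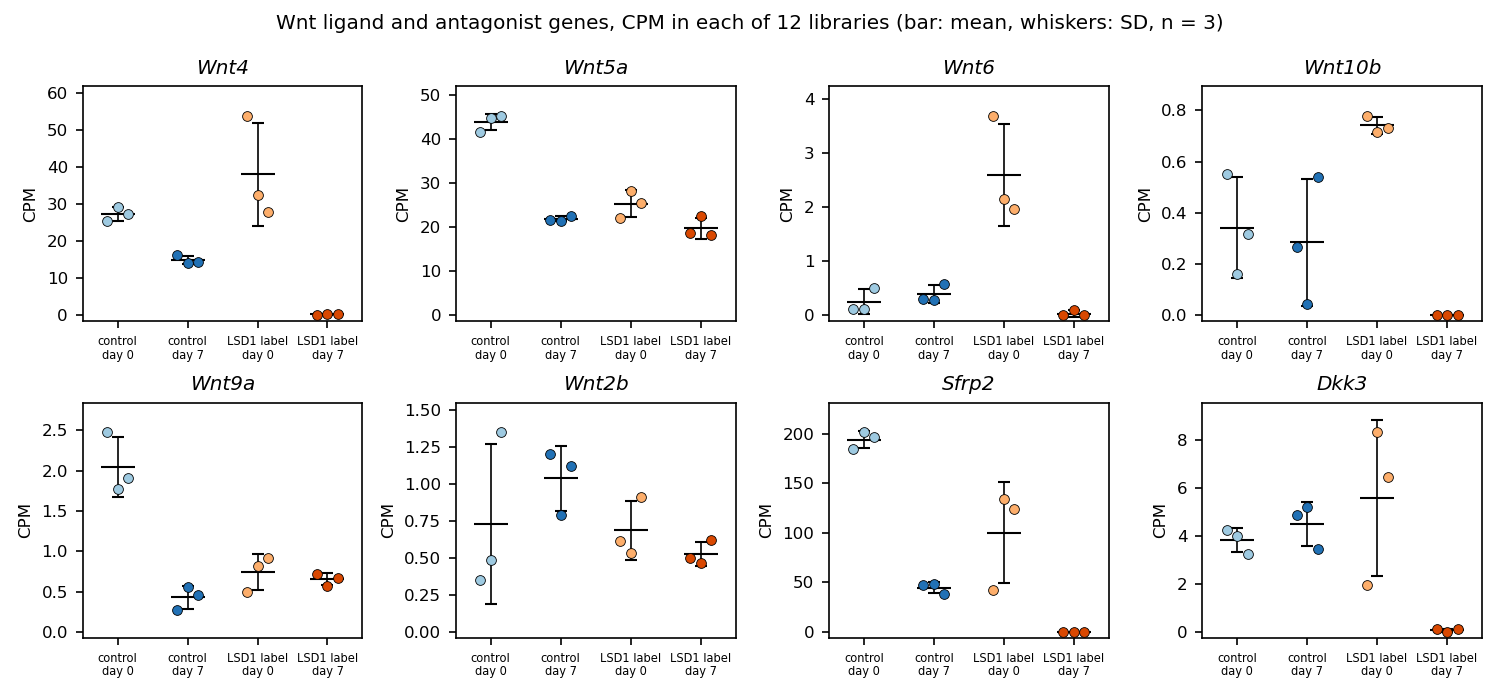
Levels in CPM (vertical axes, linear, each from 0) of 6 Wnt ligand genes and 2 antagonist genes in each of the 12 libraries, by group; the bar is the mean of 3 libraries and the whiskers are the SD. Wnt4, Wnt6, Wnt10b, Sfrp2 and Dkk3 are at or near 0 in the 3 labelled libraries at day 7, where Wnt5a is at 18.2 to 22.5 CPM.

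Among the receptors, Fzd1 and Fzd2, the most abundant pair before induction, fell under both labels, and Fzd4 and Fzd8 rose in the labelled libraries. Fzd1 had 249, 254 and 281 CPM in control at day 0, 105, 97.4 and 103 CPM at day 7, 105, 137 and 133 CPM in the labelled libraries at day 0 and 61.0, 68.8 and 71.6 CPM at day 7. It fell with induction under both labels (-1.36, SE 0.12, adjusted p = 1.38e-06 in control, and -0.90, SE 0.12, adjusted p = 1.56e-05 in the labelled libraries, by edgeR). It was lower under the label on both days (-1.06 and -0.60, adjusted p = 4.34e-05 and 0.000583). The interaction of 0.46 (SE 0.16, adjusted p = 0.0305 by edgeR) was lost when any of 5 libraries was left out, 3 of them controls, with adjusted p from 0.0505 to 0.0794.

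Fzd2 had 213, 224 and 233 CPM in control at day 0 and 66.0, 59.4 and 64.8 CPM at day 7. Labelled libraries had 204, 109 and 118 CPM at day 0 and 11.0, 11.3 and 17.2 CPM at day 7. The day 7 labelled libraries are the lowest, and 1 labelled library at day 0, the one that stood apart, is close to the control level. The fall with induction was larger under the label (-3.44, SE 0.24, adjusted p = 4.62e-08) than in control (-1.82, SE 0.22, adjusted p = 2.98e-05), with an interaction of -1.62 (SE 0.31, adjusted p = 0.000888 by edgeR). At day 0 the difference between labels was near the threshold (-0.64, SE 0.22, adjusted p = 0.0463 by edgeR). It was -0.98 (adjusted p = 2.41e-06) without the library that stood apart, and it did not pass when any 1 control library at day 0, or replicate 2 or 3 of the labelled group, was left out (adjusted p from 0.0849 to 0.153).

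Fzd4 is the receptor that also binds Norrin, with Tspan12 as its helper at the membrane. It had 27.0, 27.8 and 26.6 CPM in control at day 0, 19.4, 16.2 and 19.3 CPM at day 7, 1.23, 4.47 and 5.22 CPM in the labelled libraries at day 0 and 38.7, 47.4 and 45.3 CPM at day 7. None of the 4 groups overlap, the labelled group being lowest at day 0 and highest at day 7. It rose with induction in the labelled libraries (3.58, SE 0.35, adjusted p = 9.57e-07), while the change in control did not pass (-0.57, SE 0.31, adjusted p = 0.144). Under the label it was lower at day 0 (-2.89, SE 0.34, adjusted p = 7.61e-05) and higher at day 7 (1.26, SE 0.31, adjusted p = 0.00322), and the interaction was 4.15 (SE 0.46, adjusted p = 1.04e-05, all by edgeR). Without the library that stood apart the day 0 difference was -2.49 and the interaction 3.75, both past the threshold. Tspan12 rose with induction under both labels (1.19, SE 0.19, in control and 2.84, SE 0.20, in the labelled libraries, adjusted p = 0.000216 and 4.43e-08 by edgeR).

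Fzd8 had the same order of groups at day 7. It had 28.6, 24.3 and 30.0 CPM in control at day 0, 14.7, 17.7 and 14.6 CPM at day 7, 18.6, 16.4 and 14.2 CPM in the labelled libraries at day 0 and 28.6, 30.5 and 30.5 CPM at day 7. It fell in control (-0.82, SE 0.14, adjusted p = 0.000359) and rose in the labelled libraries (0.86, SE 0.14, adjusted p = 9.77e-05), so the 2 labels changed places between the days. The interaction was 1.69 (SE 0.20, adjusted p = 1.51e-05 by edgeR).

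Fzd7, a receptor known from stem cells and the embryo, changed less. It had 49.2, 47.2 and 50.9 CPM in control at day 0, 45.9, 47.1 and 43.5 CPM at day 7, 30.7, 38.7 and 36.6 CPM in the labelled libraries at day 0 and 24.8, 26.3 and 26.9 CPM at day 7. It was lower under the label on both days (-0.47 and -0.81, adjusted p = 0.00683 and 3.16e-05 by edgeR) and fell with induction in the labelled libraries (-0.44, adjusted p = 0.00284), while the interaction did not pass (-0.33, SE 0.15, adjusted p = 0.0866). Without the library that stood apart the interaction passed (-0.42, adjusted p = 0.00896 by edgeR). Fzd3, at 5.77 to 10.1 CPM, and Fzd5, at 15.7 to 29.2 CPM over the 12 libraries, passed in none of the 5 comparisons, with adjusted p from 0.188 to 0.99 by edgeR.

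**Figure D3:**
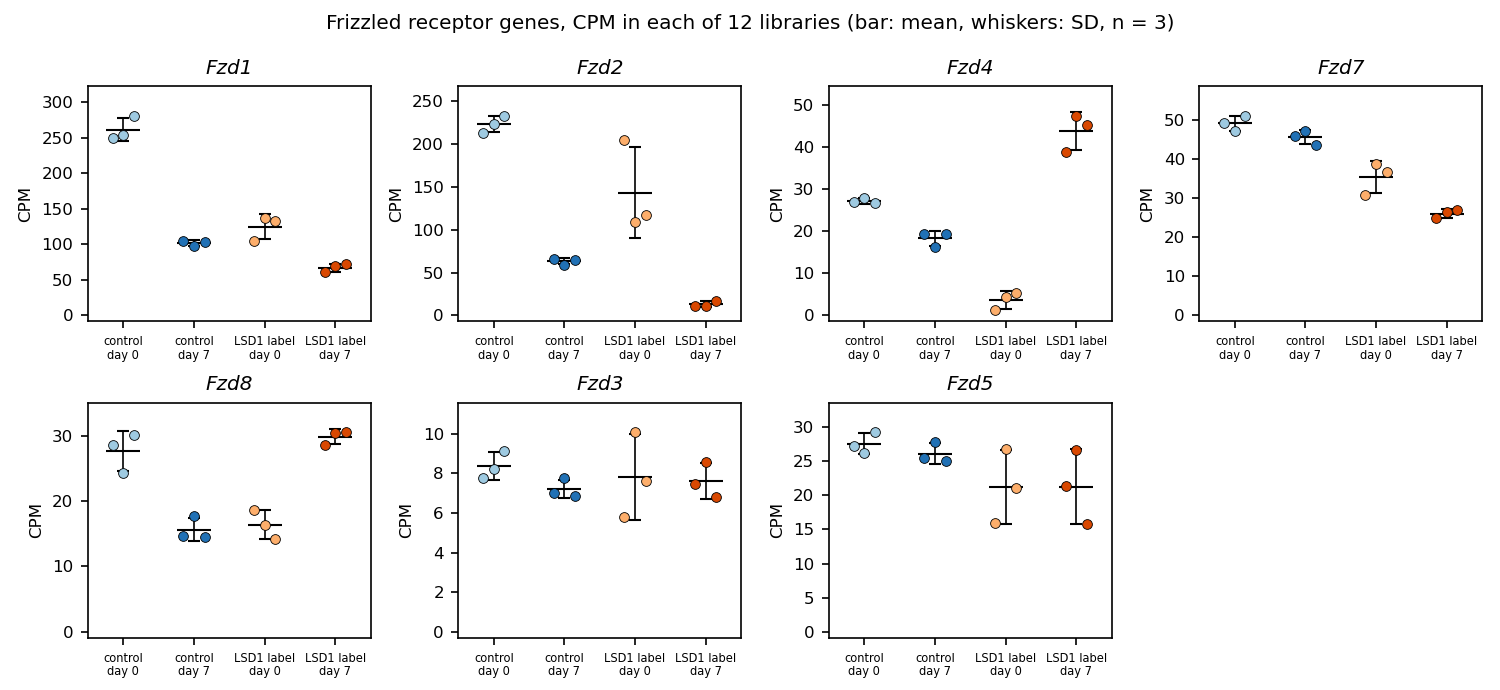
Levels in CPM (vertical axes, linear, each from 0) of the 7 tested Frizzled genes in each of the 12 libraries, by group; the bar is the mean of 3 libraries and the whiskers are the SD. Fzd1 and Fzd2 are highest in control at day 0, Fzd4 is lowest in the labelled libraries at day 0 (1.23 to 5.22 CPM) and highest in those at day 7 (38.7 to 47.4 CPM), and 1 labelled library at day 0 has 204 CPM of Fzd2.

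On the scale per kilobase, Fzd2 (61.6 ± 2.69 CPM per kb, SD, n = 3) and Fzd1 (59.7 ± 3.83) led in control at day 0 and overlapped. Fzd7 (10.2 ± 0.393) followed, then Fzd8 and Fzd4, which overlapped, then Fzd5 and Fzd3. In the labelled libraries at day 7 the order was Fzd1 (15.3 ± 1.26), Fzd4 (11.9 ± 1.22), Fzd8 (8.92 ± 0.328), Fzd7 (5.41 ± 0.223), Fzd2 (3.64 ± 0.966), Fzd5 (3.08 ± 0.79) and Fzd3 (0.596 ± 0.0711), and of these neighbours Fzd2 and Fzd5 alone overlapped. Fzd1 and Fzd2 together made 79.8% ± 0.7 of the summed Frizzled level in control at day 0, 63.3% ± 1.7 in control at day 7, 79.8% ± 4.0 in the labelled libraries at day 0 and 38.8% ± 2.3 at day 7. The share of Fzd4 was 4.86% ± 0.302, 7.70% ± 0.641, 1.21% ± 0.759 and 24.3% ± 0.948 in the same order. The summed level was 152 ± 7.18, 64.4 ± 1.39, 85.1 ± 8.84 and 48.9 ± 3.49 CPM per kb, lower at day 7 under both labels.

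**Figure D4:**
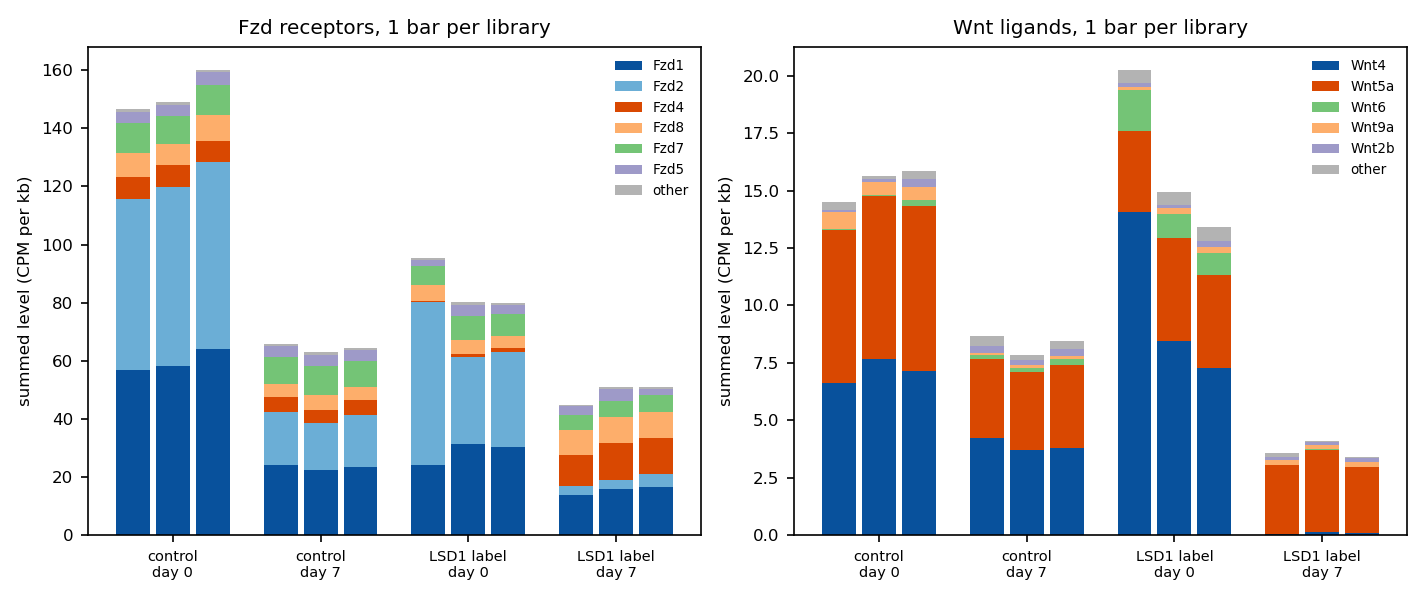
Summed level of the Frizzled genes (left) and Wnt genes (right) in CPM per kb of exon, with 1 bar per library and each colour a gene. Fzd1 and Fzd2 (blue) make 79.8% of the receptor sum in control at day 0 and 38.8% in the labelled libraries at day 7, and Wnt5a (dark orange, right) makes 85.2% of the ligand sum in the labelled libraries at day 7.

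Of the antagonists, Sfrp2 and Dkk3 were measured, and both were almost absent from the labelled libraries at day 7. Sfrp2, which binds Wnt ligands, had 185, 201 and 197 CPM in control at day 0, 47.6, 47.9 and 38.7 CPM at day 7, 41.9, 135 and 124 CPM in the labelled libraries at day 0 and 0.165, 0 and 0.104 CPM at day 7. The groups do not overlap except that 1 labelled library at day 0, the one that stood apart, lies among those of control at day 7. The last group held 5 counts against 14660 in control at day 0. Sfrp2 fell with induction in control (-2.12, SE 0.33, adjusted p = 0.000198) and in the labelled libraries (-10.07, SE 0.61, adjusted p = 1.08e-08), and the interaction was -7.95 (SE 0.75, adjusted p = 2.66e-06, by edgeR). At day 0 it was lower under the label (-0.95, SE 0.32, adjusted p = 0.0432 by edgeR). That difference was -0.59 (adjusted p = 0.000253) without the library that stood apart, and it did not pass when any 1 control library at day 0 was left out (adjusted p from 0.0834 to 0.105).

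Dkk3, a divergent Dickkopf protein, had 4.24, 3.99 and 3.25 CPM in control at day 0, 4.85, 5.19 and 3.45 CPM at day 7, 1.96, 8.30 and 6.46 CPM in the labelled libraries at day 0 and 0.110, 0 and 0.104 CPM at day 7. Only the labelled libraries at day 7 stand apart from the others, with 4 counts in all. In control the change with induction did not pass (0.23, SE 0.42, adjusted p = 0.674), whereas in the labelled libraries Dkk3 fell (-6.21, SE 0.70, adjusted p = 4.07e-06) and the interaction passed (-6.44, SE 0.85, adjusted p = 4.45e-05 by edgeR). At day 0 the labels did not differ past the test (0.55, SE 0.41, adjusted p = 0.36), but without the library that stood apart Dkk3 was higher under the label (0.95, adjusted p = 0.00225 by edgeR).

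The summed level of the 8 antagonist genes was 98.3 ± 4.26 CPM per kb in control at day 0, of which Sfrp2 made 98.7% ± 0.176, and 23.9 ± 2.88 in control at day 7. It was 51.9 ± 26.4 in the labelled libraries at day 0 and 0.0837 ± 0.0846 at day 7. Over the same groups the summed level of the 4 smooth muscle and myofibroblast markers went from 1230 to 1490 CPM to 61.6 to 71.1 CPM in control, and from 606 to 1220 CPM to 11.3 to 18.2 CPM in the labelled libraries. That of the 7 bone and cartilage markers went from 254 to 290 CPM to 119 to 155 CPM, and from 222 to 256 CPM to 45.1 to 48.7 CPM, with Acan at 0 in all groups. The 5 muscle markers, with Myod1 and Myog at 0 in all groups, reached 12.7 to 15.6 CPM in control and 33.5 to 44.1 CPM in the labelled libraries at day 7. The part of these in the change of Sfrp2 was not tested. Markers of macrophages stayed at or below 5.32 CPM in sum with Adgre1 at 0 in all groups, and those of endothelium at or below 1.92 CPM.

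Other genes of the pathway were counted from 7 fixed lists, and their changes can be read against the shares of all genes given above. Their values are given with the library that stood apart. Without it, the labelled change with induction kept its call for 51 genes, lost it for 3 (Camk2a, Tcf7 and Trabd2b) and gained one for 7, and the label difference at day 0 kept its call for 23 and gained one for 17. Of all genes tested, 26.0% were then lower and 22.6% higher at day 0, against 13.0% and 12.8% with it. Of 9 co-receptor genes tested, 6 fell and 1 rose with induction in control (24.6% and 23.7% of all genes tested). In the labelled libraries 4 fell and 3 rose (37.2% and 32.6%). Under the label 7 were lower at day 0 (13.0%), and 6 were lower and 2 higher at day 7 (33.4% and 30.2%, edgeR). Lrp5 had 308, 320 and 322 CPM in control at day 0, 350, 300 and 319 CPM at day 7, 80.9, 109 and 110 CPM in the labelled libraries at day 0 and 178, 210 and 240 CPM at day 7. It was lower under the label on both days (-1.66, SE 0.14, adjusted p = 6.33e-06 at day 0, and -0.62, SE 0.14, adjusted p = 0.00153 at day 7, by edgeR). Lrp6, its relative, was likewise lower under the label at day 0 (-0.74, SE 0.19, adjusted p = 0.012) and day 7 (-0.97, SE 0.19, adjusted p = 0.000595). Neither changed with induction in control past the test.

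Co-receptors of signalling that does not pass through beta-catenin were among those that fell. Ptk7, a planar polarity receptor, had 141, 189 and 181 CPM in the labelled libraries at day 0 and 3.37, 4.80 and 5.38 CPM at day 7 (-5.24, SE 0.18, adjusted p = 7.4e-11 by edgeR). Control stood at 122 to 133 CPM at day 0 and 84.0 to 93.1 CPM at day 7. Ror2, a receptor for Wnt5a, fell in control (-1.09, SE 0.17, adjusted p = 0.000161) and in the labelled libraries (-2.70, SE 0.19, adjusted p = 4.81e-08).

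Of the 5 tested genes of R-spondin signalling and receptor turnover, Lgr4, an R-spondin receptor, rose with induction in control (1.04, SE 0.13) and in the labelled libraries (1.09, SE 0.13), with adjusted p = 2.68e-05 and 5.45e-06 by edgeR. The ligand Rspo2 went the other way and fell in control (-2.22, SE 0.55, adjusted p = 0.00517) and in the labelled libraries (-6.81, SE 0.75, adjusted p = 3.52e-06), to 0, 0 and 0.104 CPM at day 7. In ligand processing, Porcn, the enzyme that attaches the lipid that Wnt proteins need for secretion, had 26.0, 26.3 and 24.3 CPM in control at day 0, 46.7, 43.6 and 46.5 CPM at day 7, 16.3, 21.0 and 20.4 CPM in the labelled libraries at day 0 and 311, 309 and 395 CPM at day 7. It rose in both (0.83, SE 0.13, adjusted p = 0.000161, and 4.14, SE 0.14, adjusted p = 6.71e-11, by edgeR). Wls, which carries the lipid-bearing ligands to the surface, fell in the labelled libraries (-0.71, SE 0.16, adjusted p = 0.00134).

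Of the 4 other antagonists tested, Igfbp4, which binds Lrp6 and Frizzled proteins as well as insulin-like growth factors, was lower under the label at day 0 (-1.40, SE 0.27, adjusted p = 0.00274) and higher at day 7 (1.84, SE 0.28, adjusted p = 7.46e-05, by edgeR). Apcdd1, a membrane inhibitor that is itself a beta-catenin target, fell with induction in control (-1.77, SE 0.14, adjusted p = 6.4e-07) and was lower under the label at day 0 (-1.87, SE 0.14, adjusted p = 2.45e-06).

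Inside the cell, 13 of 33 core genes fell and 3 rose in control (24.6% and 23.7% of all genes tested). In the labelled libraries 12 fell and 6 rose (37.2% and 32.6%). Under the label 2 were lower and 2 higher at day 0 (13.0% and 12.8%), and 11 lower and 8 higher at day 7 (33.4% and 30.2%, edgeR). The 12 that fell and the 11 lower at day 7 were near the shares of all genes. Without the library that stood apart, the count at day 0 was 8 lower and 6 higher, of 33 (26.0% and 22.6% of all genes). Ctnnb1, which encodes beta-catenin, was lower under the label at day 0 (-0.83, SE 0.094, adjusted p = 5.94e-05) and at day 7 (-0.73, SE 0.094, adjusted p = 1.96e-05). Of its partners, Lef1 rose with induction in control (1.82, SE 0.18, adjusted p = 4.15e-06), from 8.64 to 11.5 CPM to 28.8 to 40.0 CPM. Under the label its change did not pass (0.37, SE 0.18, adjusted p = 0.0803). Tcf7l2 passed in none of the 5 comparisons (adjusted p from 0.0504 to 0.927). The co-repressor genes split, with Tle2 lower (-6.01, SE 0.30, adjusted p = 4.75e-09) and Tle1 higher (1.8, SE 0.12, adjusted p = 5.68e-08) in the labelled libraries at day 7 (edgeR).

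8 of the genes listed as common beta-catenin targets were tested. In control 4 fell and 2 rose with induction (24.6% and 23.7% of all genes tested), and in the labelled libraries 6 fell (37.2%). Under the label 1 was lower and 2 higher at day 0 (13.0% and 12.8%), and 7 were lower at day 7 (33.4%, edgeR). At day 0 without the library that stood apart, 3 were lower and 3 higher (26.0% and 22.6% of all genes). Ccnd1 was among the lower ones (-1.29, adjusted p = 1.75e-09 by edgeR). Ccnd1, the cyclin of G1, also follows proliferation, and had 762 to 801 CPM in control at day 0, 191 to 204 CPM at day 7, 307 to 775 CPM in the labelled libraries at day 0 and 7.18 to 9.54 CPM at day 7. Axin2, the target most often used as a readout of the pathway, had 43 counts over the 12 libraries and was not tested. Of 20 tested genes of the planar polarity and calcium branch, 6 fell and 2 rose in control (24.6% and 23.7% of all genes tested). In the labelled libraries 12 fell and 3 rose (37.2% and 32.6%). Prickle1 (-2.16, SE 0.11, adjusted p = 7.83e-09 by edgeR) and Prickle2 (-2.94, SE 0.21, adjusted p = 8.77e-08) were lower under the label at day 7.

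LSD1 promoter peaks were listed at 3 to 7 of the 11 Fzd genes, at 0 to 3 of the 19 Wnt genes and at no Sfrp or Dkk gene, depending on the list. A gene was counted where a peak overlapped the window of 1 kb to each side of an annotated start site. In control at day 0, 3 of the 38 genes had such a peak (7.89%), namely Fzd2, Fzd5 and Fzd7, against 12.5% of all 26180 annotated genes. In control at day 7 there were 6 (15.8%), Fzd1, Fzd2, Fzd4, Fzd5, Fzd7 and Fzd8, against 32.5%. In the labelled cells there were 6 at day 0 (15.8%, against 39.5%), Fzd1, Fzd2, Fzd5, Fzd7, Fzd8 and Wnt5a, and 10 at day 7 (26.3%, against 45.0%), which added Fzd3, Fzd4, Wnt9a and Wnt5b. The Wnt5b peak (score 90.22) lay at an inner start site. With a score of 100 or more, 8 genes were left in this list, without Wnt5b and Wnt9a. Among the 15 genes tested for expression the shares were 20%, 40%, 40% and 60% in this order, against 23.0%, 59.8%, 71.4% and 80.9% of all tested genes. Each share was below that of genes at large, but among tested genes in control at day 0 it was near it (3 of 15, 20%, against 23.0%). The lists come from 1 sample each, so no test was made between them.

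All 7 tested Frizzled genes had a promoter peak in the labelled day 7 list, where 80.9% of all tested genes had one, and of the 8 tested ligands and antagonists Wnt5a and Wnt9a did. Wnt4, Wnt6, Wnt10b, Wnt2b, Sfrp2 and Dkk3 had no promoter peak in any of the 4 lists. At Fzd4 the peak was listed at day 7 under both labels, with a score of 150.51 in control and 835.37 in the labelled cells, and at day 0 under neither. The peak spanned 1102 bases in control at chr7:89403847-89404948 and 1571 bases in the labelled cells at chr7:89403527-89405097, over the start site at base 89404366. By rank within its list, it stood at or above 60.1% of the peaks in control and 85.7% in the labelled cells, and scores of lists of unlike length cannot be set against each other.

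Fzd2, Fzd5 and Fzd7 carried a peak in all 4 lists. At Fzd7 the scores were 93.88 and 373.72 in control and 742.34 and 1178.93 in the labelled cells at day 0 and day 7. They ranked at or above 70.5%, 93.3%, 94.3% and 91.9% of their lists. At Fzd1 and Fzd2 the peaks of the labelled day 0 list were 8308 and 8573 bases wide and covered the whole gene, where the median width in that list was 1695 bases. Fzd1 lies at chr5:4753839-4758216 on the minus strand and Fzd2 at chr11:102604431-102608058 on the plus strand. Wnt5a, at chr14:28505473-28527447, had a promoter peak in the labelled cells at both days and in no control list, with scores of 255.57 and 313.02. Fzd5 carried its peaks with no expression change that passed, so a listed peak was found at genes that fell, rose or did neither.

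Outside the promoters, Sfrp4 had a peak before its start in all 4 lists, centred at -3770 to -3432 bases from the start site. Wnt4 had 2 peaks in its body, 5451 and 9770 bases into the gene, in the labelled day 0 list alone, with scores at or above 0.593% and 11.4% of that list. The same list had 2 more past its end, centred 22489 and 30877 bases from the start site (22.3% and 31.6%). Wnt5b had 6 peaks in its body in the labelled day 7 list and 1 in control at day 0. Sfrp2 and Wnt6 had none within 10 kb of the gene. Dkk3 had a peak 19976 bases into the gene in the labelled day 7 list (at or above 52.7% of it) and 1 past its end in the labelled day 0 list (73.7%). Wnt10b had a peak past its end, centred 15134 to 15281 bases from the start site, in the control day 7 list and in the labelled lists of each day. It stood at or above 79.7% of the control list, and 63.8% and 92.7% of the labelled lists at day 0 and day 7. Whether the peaks outside the promoters lie at the start of a neighbouring gene was not tested, so they are given by position only.

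**Figure D5:**
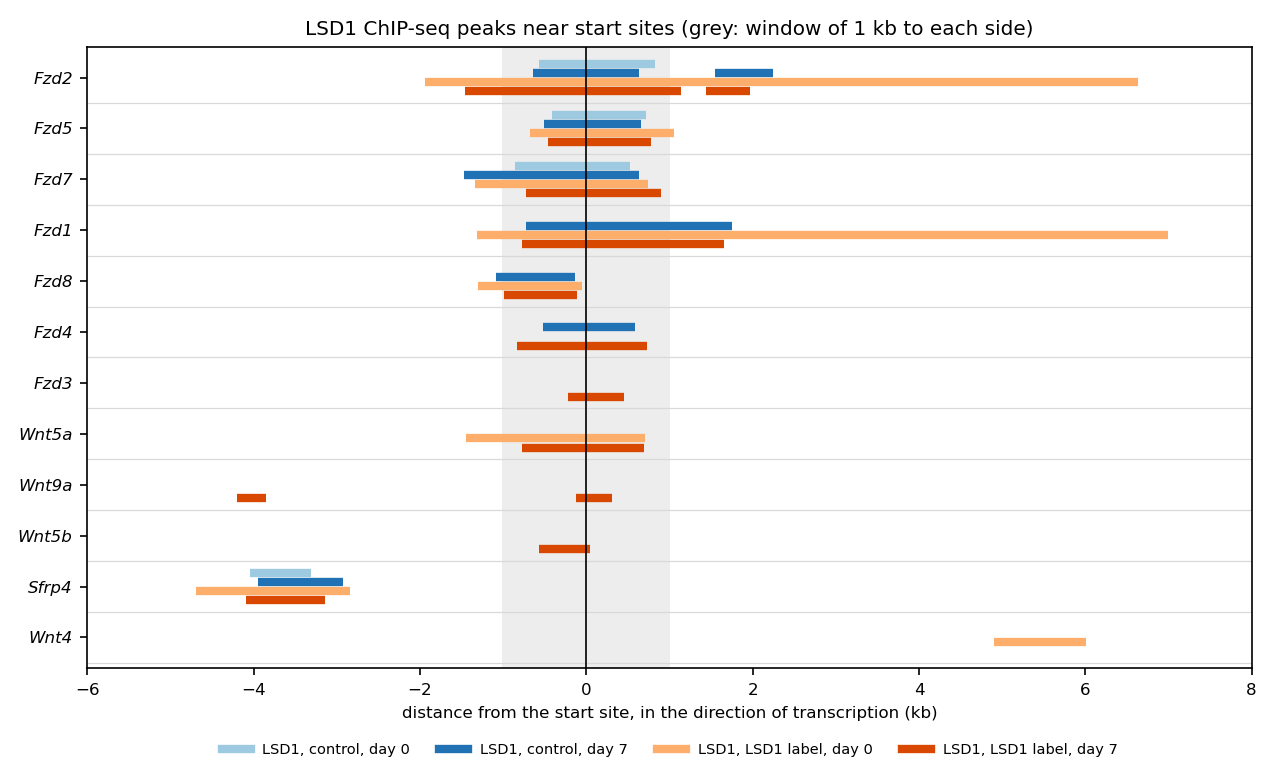
LSD1 peaks as bars along the distance from the start site in kb (horizontal axis, positive in the direction of transcription) for 12 genes (rows), coloured by the 4 lists; the grey band is the 1 kb window to each side. Peaks sit over the start of Fzd2, Fzd5 and Fzd7 in all 4 lists and over that of Fzd4 in the 2 day 7 lists, the day 0 labelled peaks of Fzd1 and Fzd2 are over 8 kb wide (8308 and 8573 bases), and the Sfrp4 peaks lie before its start.

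The promoter sequences show what these windows look like. RefSeq windows of 300 bases (250 before to 50 after the start, GRCm38.p6, the build called mm10 in the labels) were at hand for 25 of the 38 genes, as 28 windows. 6 are shown here in part, as the 200 bases that end just before the start site, read 5′ to 3′ on the strand of the gene. They stand for 3 receptors and 1 ligand with a peak and a change in expression (Fzd1, Fzd4, Fzd7 and Wnt9a) and for 2 genes without a promoter peak that were nearly lost (Sfrp2 and Wnt4). The Wnt9a peak was in the labelled day 7 list alone, with a score of 79.59, at or above 27.2% of that list. Its changes that passed were those with induction in control, between labels at day 0 and in the interaction, so peak and change are not of the same condition. Capitals mark CG dinucleotides, the sites of DNA methylation, which are dense in CpG islands.
Fzd1, chr5:4758217-4758416, minus strand: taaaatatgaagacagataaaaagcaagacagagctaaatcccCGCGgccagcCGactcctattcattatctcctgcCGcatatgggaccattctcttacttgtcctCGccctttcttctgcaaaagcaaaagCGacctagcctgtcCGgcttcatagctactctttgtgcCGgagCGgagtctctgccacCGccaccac
Fzd4, chr7:89404166-89404365, plus strand: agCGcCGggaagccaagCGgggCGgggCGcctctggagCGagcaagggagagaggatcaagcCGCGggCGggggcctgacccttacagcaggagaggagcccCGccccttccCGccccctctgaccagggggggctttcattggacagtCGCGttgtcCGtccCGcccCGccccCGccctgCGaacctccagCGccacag
Fzd7, chr1:59481947-59482146, plus strand: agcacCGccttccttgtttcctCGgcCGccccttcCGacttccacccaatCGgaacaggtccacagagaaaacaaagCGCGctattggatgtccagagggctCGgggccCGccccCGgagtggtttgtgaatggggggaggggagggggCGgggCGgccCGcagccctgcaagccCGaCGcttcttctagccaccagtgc
Wnt9a, chr11:59306730-59306929, plus strand: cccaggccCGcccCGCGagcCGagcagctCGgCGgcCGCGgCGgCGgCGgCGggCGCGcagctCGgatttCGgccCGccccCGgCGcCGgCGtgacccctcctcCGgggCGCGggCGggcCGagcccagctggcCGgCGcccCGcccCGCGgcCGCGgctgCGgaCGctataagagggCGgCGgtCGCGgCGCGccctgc
Sfrp2, chr3:83766121-83766320, plus strand: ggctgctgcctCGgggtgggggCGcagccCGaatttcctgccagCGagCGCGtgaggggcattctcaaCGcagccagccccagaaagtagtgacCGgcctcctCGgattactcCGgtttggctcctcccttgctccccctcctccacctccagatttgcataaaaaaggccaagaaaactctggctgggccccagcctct
Wnt4, chr4:137277435-137277634, plus strand: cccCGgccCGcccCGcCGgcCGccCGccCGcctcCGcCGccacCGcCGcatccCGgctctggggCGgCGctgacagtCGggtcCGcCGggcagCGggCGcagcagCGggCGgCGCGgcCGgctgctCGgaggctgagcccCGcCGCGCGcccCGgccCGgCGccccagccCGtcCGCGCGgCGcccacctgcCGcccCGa

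These stretches held 10 CG dinucleotides at Fzd1, 19 at Fzd4, 15 at Fzd7, 41 at Wnt9a, 10 at Sfrp2 and 39 at Wnt4. Over the full window of 300 bases, Fzd4 had 32 and Fzd7 24, Sfrp2 had 22 and Wnt4 51, against a median of 7 over all 32851 windows. Wnt4 thus had more CG than the Frizzled promoters shown and no promoter peak, and Fzd1 had 16 and a peak in 3 lists, so the number of CG did not divide genes with a peak from those without. The GC box GGGCGG, read on both strands, was in 21 of the 28 windows and in 35.7% of all windows. It is in those of Fzd4, Fzd7, Wnt9a and Wnt4 and not in those of Fzd1 and Sfrp2. The box CCAAT was in 11 of the 28 (37.4% of all), among them Fzd4, Fzd5 and Fzd7. The TCF and LEF core CTTTGAT was in 2 windows, of Wnt11 and of an inner start of Wnt5b (3.73% of all). The Nrf1 core GCATGCGC was in 1, of Fzd10 (2.71% of all). These are matches of letters within the window and overlap no other motif searched.

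Nrf1 had a promoter peak at 0 of the 38 genes on both days, where 6.59% of all annotated genes and 12.1% of tested genes had one at day 0, and 7.09% and 13.1% at day 7. For Nrf1 at day 7 the labels conflict on the genotype (LSD1 cells by title, control by genotype), and that list is taken by factor and day alone. The count was also 0 with a window of 5 kb.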

How the data were processed

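The authors deposited raw read counts, 1 value per RefSeq transcript and library (27512273 to 37565527 counts in total), and peak lists with a score per peak. For RNA, mm10 with TopHat2 (version 2), HOMER, DESeq (1.8.3) and edgeR, and for ChIP-seq Bowtie2 and MACS (1.41), are named per the submitters' processing notes. Their roles, the cut-off, the input of each list and the ChIP-seq depth are not given in the sources used here, and the scale of the deposited peak score is not known.

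Of 30521 transcripts, 29144 were named from RefSeq and 177 from GENCODE, and 1200 (0.896% of counts) kept their accession. The transcript with the highest mean count stood for each gene, since isoforms share reads. edgeR 4.0.16 (R 4.3.3) was run with filterByExpr, TMM scaling and robust quasi-likelihood dispersions, 1 mean per group and all 12 libraries in 1 fit. P-values are two-sided, with Benjamini-Hochberg adjustment over 13356 genes and a threshold of 0.05. CPM uses TMM-scaled library sizes, and SE is the log2 fold change over the square root of F. Floors are 3 counts over a group, and intervals (95%, Clopper-Pearson) cover counting error only: over all transcripts and libraries a count of 2 occurred 9561 times and a count of 1 occurred 7474 times, so 1 count may not be 1 molecule.

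Peaks were set against RefSeq start sites of GRCm38 (0 peaks ran past a chromosome end). Levels between genes were compared per kb of exon. The fits were tested on simulated data. Replicate numbers did not pair the libraries (correlations of same-numbered deviations -0.35 to 0.22). The genes and lists were chosen with earlier results of these data known. Genes are named by a rule: every tested member, with values per library at a mean of 1 CPM or more, and up to 3 genes per list, direction and comparison by adjusted p, plus Ctnnb1, Lrp5, Lrp6, Axin2, Lef1 and Tcf7l2. Alternatives were RLE scaling, no filter, sums over transcripts, DESeq2 1.42.0, a replicate block, leaving out each library, and other peak windows and scores.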

Additional observations from a re-analysis of the deposited data

Results flagged for a closer look

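For 11 of the 15 tested genes the day 7 to day 0 difference was not the same in the 2 genotype labels by the interaction term of the edgeR fit, given here as the labelled change minus the control change in log2 units. It was negative for Sfrp2 (-7.95), Wnt10b (-6.88), Wnt6 (-6.64), Dkk3 (-6.44), Wnt4 (-5.94) and Fzd2 (-1.62), and positive for Fzd4 (4.15), Wnt9a (2.06), Fzd8 (1.69), Wnt5a (0.65) and Fzd1 (0.46). The adjusted p was highest for Fzd1 (0.0305), whose call depended on single libraries. Wnt6 and Wnt10b passed the filter only through the labelled day 0 group, which enters this term. The fitted value of Wnt10b stands against a group with 0 counts and depends on the prior count of the fit, and that of Wnt6 was -9.59 without replicate 2 of the labelled day 7 libraries, which held both of its counts there.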

How the results depend on the processing

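Under every alternative run the number of tested genes that fell or were lower stayed within 1.5 times the reported one in all 5 comparisons. The number higher moved where it was small. In control from day 0 to day 7 it was 0, and it was 1 with no filter on low counts and 1 with DESeq2, in both cases Sfrp5, which is below the filter, and 0 to 1 with 1 library left out. Under the label at day 0 it was 1, and it was 2 with no filter, which adds Wnt7a, and 1 to 2 with 1 library left out. With a score of 100 or more, 1 of the genes kept an LSD1 promoter peak in control at day 0 (Fzd2) where 3 were reported, and the other lists stayed within 1.5 times.

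With the replicate block, the day 0 difference between labels of Fzd2 was -0.67 (adjusted p = 0.0514), so that 7 rather than 8 genes were lower there, and the block changed no other count. With no filter, the interaction of Fzd1 (0.40, adjusted p = 0.104) and the day 0 label difference of Sfrp2 (-0.918, adjusted p = 0.114) did not pass. Signs turned for values that had not passed: Fzd5 in the labelled libraries from day 0 to day 7 was -0.05 with no filter. With 1 library left out, 13 signs turned, none of them of a change that had passed. The ranges with 1 library left out were, for Fzd3, -0.216 to 0.184 from day 0 to day 7 in the labelled libraries, -0.321 to 0.077 under the label at day 0 and -0.032 to 0.159 at day 7. They were -0.200 to 0.205 for Fzd5 from day 0 to day 7 in the labelled libraries and -0.127 to 0.284 in the interaction. Wnt10b in control ranged from -1.09 to 0.266, and Wnt2b under the label at day 0 from -0.414 to 0.710. The causes were not tested. The counts of the 23 genes below the filter limit what can be said of them, and the ChIP-seq depth is unknown.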

Other observations

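Some members sit beside another on their chromosome. Wnt9a lies 16178 bases from Wnt3a on the opposite strand and had 29 to 155 counts per group, while Wnt3a had 2 counts in all. Wnt9b and Wnt3, 24353 bases apart, had 2 counts each. The promoter windows of these barely expressed genes also hold many CG dinucleotides, 45 at Wnt3a, 29 at Wnt9b and 24 at Wnt3, and no LSD1 list had a peak over any of them.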
